A study of Oryza sativa with 18 samples.

Results

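The response to jasmonate (JA) that remained in crown root tips of the rice line oscoi2 was examined by comparing its 3 JA-treated libraries with its 3 mock libraries, which are 6 of the 18 libraries of the series and were taken by their column names in the count table. The oscoi2 plants, JA-treated or mock-treated, are a homozygous CRISPR/Cas9-edited line of the cultivar Kitaake with deletions at both target sites in OsCOI2. They were set beside the oscoi1ab plants, JA-treated or mock-treated, edited in OsCOI1a and OsCOI1b, and beside unedited WT Kitaake plants, JA-treated or mock-treated. Plants were 6 days old, were placed for 6 h in medium with 5 µM JA or with DMSO (mock), and tips of about 1 cm from 20 to 24 plants made 1 sample, with 3 samples per line and treatment, picked in the study from a larger number of independent ones. Each edited genotype is represented by 1 line, so the edited gene and anything else particular to that line cannot be told apart.

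JA acts after it is joined to isoleucine. The conjugate JA-Ile brings a COI F-box protein and a JAZ repressor together, the repressor is degraded, and transcription factors such as MYC2 are freed. Rice has the receptors OsCOI1a, OsCOI1b and OsCOI2. JAZ genes and genes of JA synthesis and breakdown are themselves targets of the pathway, which gives it positive and negative feedback, and in roots JA represses elongation and induces defense genes.

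The sites below are the targets of the guides used to edit OsCOI2 (LOC_Os03g15880), shown because they define the line. Capitals mark the PAM, the bases beside the target that Cas9 requires, and positions are those of the Kitaake assembly made in the study. The first lies at chr3:8796630-8796652 on the reverse strand and the second at chr3:8796721-8796743 on the forward strand.
oscoi2_gRNA1: ttcgacaattgcgcacaaggAGG
oscoi2_gRNA2: atattacaagactttgccggTGG

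The 6 oscoi2 libraries totalled 103361397 to 113672521 counts, within the 99657931 to 113672521 of the series. Levels are library-scaled counts (CPM) on the scale of edgeR's TMM factors, and tests are edgeR's quasi-likelihood F tests over 30907 genes. Calls required a false discovery rate (FDR, Benjamini-Hochberg over all genes tested) under 0.01 and a log2FC of 1 or more in size, and every FDR below is of that kind. On principal components of the oscoi2 libraries, PC1 (41.2% of the variance) put the JA libraries at 65.6 to 96.7 and the mock libraries at -116 to -60.7. PC2 (20.4%) put mock replicate 1 at 98.8 and JA replicate 1 at 45.3, with the other 4 libraries between -71.6 and 13.4. Of 11 root tip markers, all were tested, and RCc3, a root-specific gene, stood at 2521 to 3149 CPM after JA and 3454 to 4695 CPM under mock. The 7 tested green tissue markers together reached 63.5, 170 and 118 CPM in the JA libraries and 94.5, 270 and 234 CPM in the mock libraries. In such tissue samples, fewer cells of a type and less RNA per cell cannot be told apart.

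JA changed the oscoi2 transcriptome mainly upward. A total of 1378 genes were called (4.46% of those tested), of which 924 rose (2.99%) and 454 fell (1.47%), with 9264 genes at an unadjusted p under 0.05. JA and mock libraries did not overlap for 1376 of the 1378 called genes, where 33.2% of all tested genes showed no overlap. The median log2FC of the called genes was 1.68 for those that rose and 1.43 in size for those that fell. A log2FC of at least 4 was reached by 106 genes that rose and by 19 that fell. For 30 of the rises all mock libraries were at 0, and for 11 of the falls all JA libraries were. With library size as the only scaling, the median of all genes moved to -0.16 and the calls split into 732 up and 753 down, so the excess of rises depends on the scaling. Leaving out both oscoi2 libraries numbered 1 left 749 calls, 598 up and 151 down.

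The same treatment called 4342 genes in WT (14%, with 7.48% up and 6.56% down) and 4829 in oscoi1ab plants (15.6%, with 7.48% up and 8.15% down). Of the 924 genes that rose in oscoi2, 776 also rose in WT, which is 84.0% of the oscoi2 list and 33.5% of the 2313 genes of the WT list. Of the 454 that fell, 312 also fell in WT, 68.7% of the oscoi2 list and 15.4% of the 2029 of the WT list, and no gene was called in opposite directions. Among the shared rises the median log2FC was 1.797 in oscoi2 and 2.56 in WT, and among the shared falls -1.48 in oscoi2 and -1.85 in WT. The direct test of the difference between the 2 responses called 908 genes (2.94%), 1.31% with a higher and 1.63% with a lower log2FC in oscoi2. It called 171 of the 1378 oscoi2 genes, of which 149 responded less than in WT with the same sign and 22 responded more or oppositely. Most of the remaining response was thus in the WT direction, and for 1207 genes the difference from WT did not pass the test. Against oscoi1ab the test called 1042 genes (3.37%), 1.52% with a higher and 1.85% with a lower log2FC in oscoi2. The 2 lines shared 792 rises and 372 falls, and 1 gene that rose in oscoi2 fell in oscoi1ab.

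**Figure D1:**
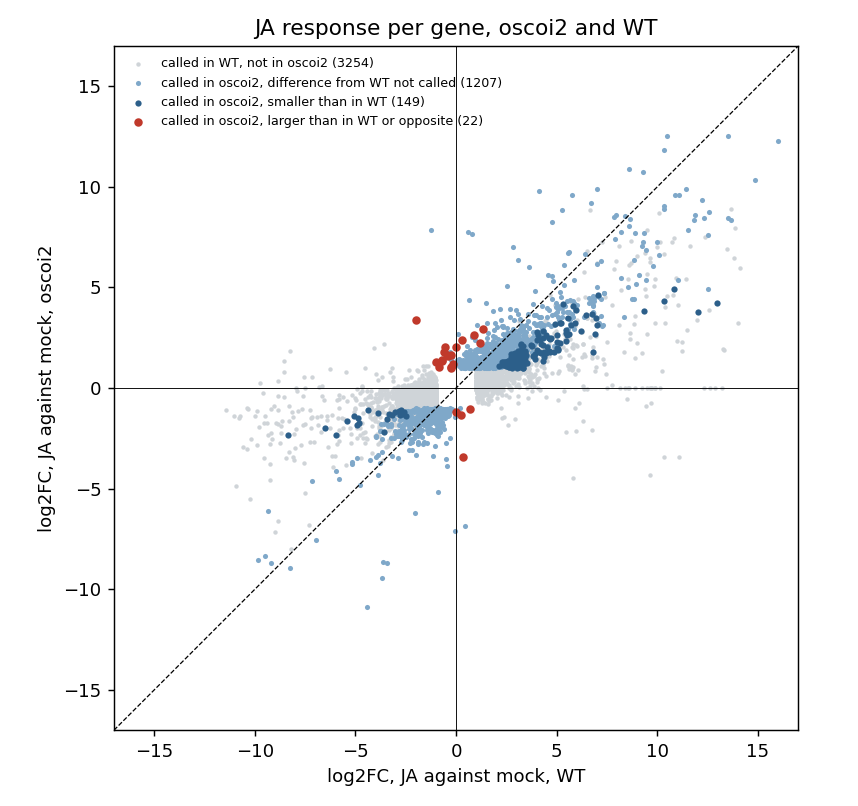
log2FC of JA against mock in WT (x axis) and in oscoi2 (y axis), 1 point per gene called in either line. The dashed line marks equal response. The 149 dark blue points respond less in oscoi2 than in WT, and the 22 red points more or oppositely.

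The receptor genes themselves did not respond. OsCOI2, the edited gene, had 22.6, 28.6 and 22.3 CPM in JA-treated oscoi2 plants and 23.2, 25.7 and 24.1 CPM in mock plants, with overlapping groups (log2FC 0.01 ± 0.14 SE, FDR 0.975). The transcript was present in all 6 libraries, and a transcript count does not check a small deletion. Its mean under mock was 24.3 CPM in oscoi2 and 43.6 CPM in WT (log2FC -0.84, FDR 0.00438, short of the fold limit). After JA the means were 24.5 and 45.4 CPM. OsCOI1a had 79.4, 94.0 and 88.6 CPM after JA and 78.0, 88.7 and 67.4 CPM under mock (FDR 0.764), and OsCOI1b 90.7, 119 and 95.1 CPM against 87.7, 101 and 86.3 CPM (FDR 0.407). Both other receptor genes were thus transcribed with and without JA.

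Most JAZ genes still rose, with lower log2FC than in WT. The list is that of the study, drawn on these libraries. Of the 14 OsJAZ genes tested (OsJAZ14 did not pass the filter on low counts), 9 rose and none fell, against 2.99% of all genes tested, with a median log2FC of 1.78 in oscoi2, 4.63 in oscoi1ab and 3.97 in WT. OsJAZ8 rose most. It had 93.9, 105 and 99.5 CPM in JA libraries, against 5.55, 6.11 and 4.46 CPM in mock libraries (log2FC 4.21 ± 0.30 SE, FDR 1.55e-07). The groups lie far apart, and the log2FC of OsJAZ8 in WT was 5.87. OsJAZ1 had 594, 560 and 527 CPM after JA and 150, 157 and 160 CPM under mock (log2FC 1.85 ± 0.10 SE, FDR 1.72e-08). OsJAZ7 had 859, 807 and 659 CPM after JA and 168, 198 and 155 CPM under mock (log2FC 2.16 ± 0.22 SE, FDR 5.06e-06). OsJAZ11 had 83.1, 70.1 and 81.6 CPM against 9.63, 9.38 and 13.7 CPM (log2FC 2.85 ± 0.43 SE, FDR 0.000278), and its WT log2FC was 6.23. OsJAZ12 had 43.3, 43.8 and 44.97 CPM against 4.49, 6.65 and 9.19 CPM (log2FC 2.70 ± 0.43 SE, FDR 0.000409).

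Other JAZ genes kept little of the response. OsJAZ9 had 1.86, 2.08 and 3.64 CPM after JA and 1.13, 0.794 and 1.78 CPM under mock, without overlap but below the test's limit (log2FC 1.03 ± 0.48 SE, FDR 0.158), where WT reached 5.81. OsJAZ13 overlapped between groups, with 7.97, 3.28 and 5.30 CPM after JA and 5.49, 2.16 and 4.63 CPM under mock (log2FC 0.43, FDR 0.655), where WT reached 4.03. OsJAZ4 had 68.5, 56.9 and 14.2 CPM after JA and 23.6, 32.5 and 33.7 CPM under mock, so that JA replicate 3 lay below every mock library. OsJAZ15 was at or under the floor in all 6 libraries. The rises of OsJAZ3, OsJAZ5, OsJAZ6 and OsJAZ10 had log2FC of 1.33, 3.65, 2.12 and 1.46, and OsJAZ2, at 1.71, overlapped between groups and did not pass (FDR 0.0787). OsJAZ10 lost its call when any 1 of the 6 oscoi2 libraries was left out (log2FC 1.278 to 1.596), OsJAZ3 in 4 of these 6 omissions (1.144 to 1.322) and OsJAZ5 in 3 (3.157 to 3.741). Without mock replicate 2 or JA replicate 1 the count of JAZ genes that rose was 6. The response differed from that of WT for 7 of the 14 genes (OsJAZ1, OsJAZ6 and OsJAZ9 to OsJAZ13) and from that of oscoi1ab for 10, beside 2.94% and 3.37% of all genes. OsJAZ3 lost its call with the replicate number as a block within each line (FDR 0.0122), which left 8 of the 14 genes called. OsJAZ9, OsJAZ10 and OsJAZ11 lie side by side on chromosome 3, as do OsJAZ12 and OsJAZ13 on chromosome 10, and how reads were shared between such copies is not known.

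**Figure D2:**
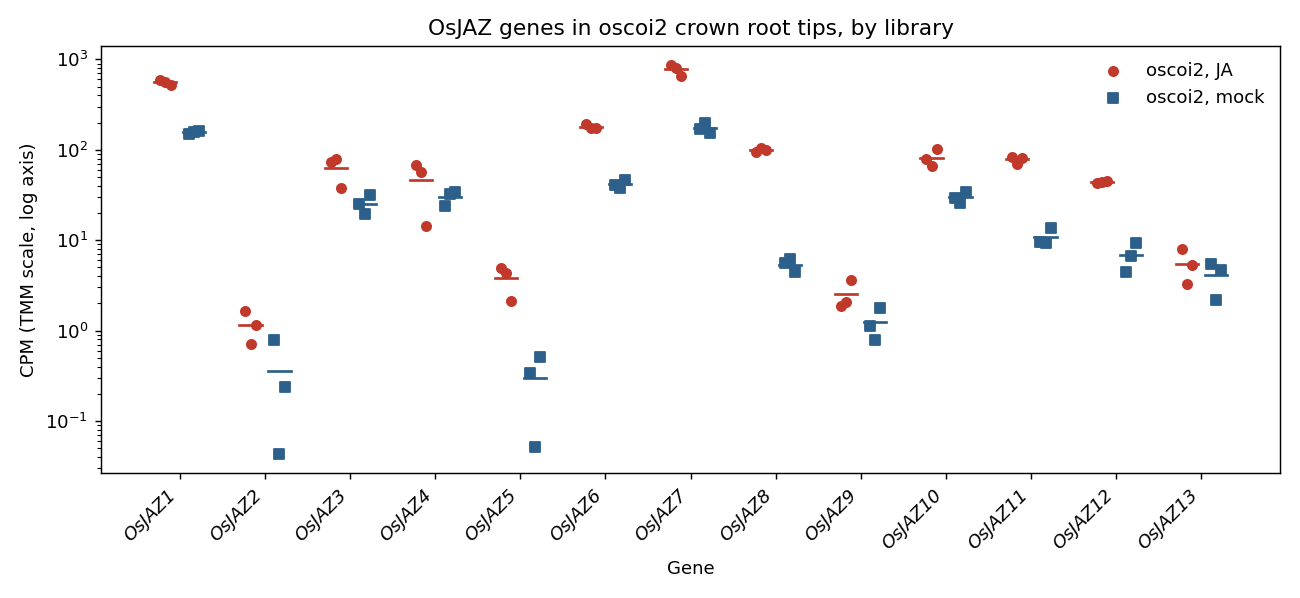
CPM (log axis) of OsJAZ1 to OsJAZ13 in each oscoi2 library, JA (circles) left of mock (squares), with a bar at the mean of the 3 libraries. OsJAZ8 stands at 93.9 to 105 CPM after JA and 4.46 to 6.11 CPM under mock, and the groups overlap for OsJAZ2, OsJAZ4 and OsJAZ13.

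Genes of JA synthesis rose by a part of the WT response. Of 7 listed genes, 5 rose in oscoi2 (2.99% of all tested genes did) and all 7 in WT (7.48% of all tested genes), with median log2FC of 2.54 in oscoi2 and 3.99 in WT. The list was chosen in the study on these libraries. Lipoxygenase starts the pathway: OsLOX9 had 9.67, 6.19 and 2.95 CPM after JA and 0.484, 0.535 and 0.586 CPM under mock (log2FC 3.55 ± 0.56 SE). The allene oxide synthase gene OsAOS2 had 100.1, 63.3 and 96.2 CPM against 30.1, 26.8 and 32.5 CPM (log2FC 1.54 ± 0.21 SE, FDR 0.000113). OsAOS1, of the same step, had 3.56, 1.69 and 1.00 CPM after JA and at most 0.192 CPM under mock. The next enzyme, allene oxide cyclase, had a log2FC of 0.90 (OsAOC, 276, 232 and 254 CPM against 133, 120 and 156 CPM) and OPDA reductase one of 0.52 (OsOPR7), both with an FDR under 0.01 but short of the fold limit. OsPLD4 and OsPLD5, phospholipase genes that neighbour each other, had log2FC of 3.12 and 2.54. The response was smaller than that of WT for OsAOC, OsAOS1, OsAOS2, OsOPR7 and OsPLD4, with differences of -1.19 to -6.01. With limma-voom, 3 of the 7 genes were called.

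Conjugation and breakdown of the hormone followed the same pattern. OsJAR1, which joins JA to isoleucine, had 107.1, 100.04 and 82.6 CPM after JA and 43.9, 38.8 and 40.03 CPM under mock (log2FC 1.24 ± 0.16 SE, FDR 8.33e-05). OsJAR2 had overlapping groups in oscoi2 (6.05, 5.78 and 4.56 CPM after JA, 5.31, 9.42 and 6.71 CPM under mock), where WT showed a log2FC of -3.77. The difference of 3.38 between the 2 responses passed the test (FDR 0.00173). Of 5 genes that break down JA-Ile, 3 rose in oscoi2 and 5 in WT, beside 2.99% and 7.48% of all tested genes. OsCYP94B4, an oxidase of JA-Ile, had 120, 107 and 105 CPM against 11.8, 9.64 and 13.9 CPM (log2FC 3.23 ± 0.29 SE, FDR 1.82e-06), with a WT log2FC of 5.17. OsCYP94C2a and OsCYP94C2b rose with log2FC of 2.63 and 2.32, against 4.99 and 5.46 in WT. OsCYP94B5 overlapped between groups (FDR 0.516), and the amidohydrolase gene OsAH8 had a log2FC of 0.41 (FDR 0.012).

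Among regulators, OsMYC2 and OsJAMYB rose. OsMYC2, the main activator freed from JAZ proteins, had 144, 125 and 138 CPM after JA and 49.5, 56.0 and 63.0 CPM under mock (log2FC 1.27 ± 0.13 SE, FDR 7.43e-06), and 2.24 was its log2FC in WT. OsJAMYB, a JA-induced MYB factor, had 47.3, 80.7 and 31.7 CPM against 2.06, 3.75 and 1.27 CPM (log2FC 4.497 ± 0.44 SE). In all, 2 of 15 listed JA-responsive transcription factor genes rose and 1 fell, where 11 rose and 1 fell in WT. Over all tested genes 2.99% rose and 1.47% fell in oscoi2, and 7.48% rose and 6.56% fell in WT. The factor that fell, OsbHLH034, had 3.56, 2.66 and 4.002 CPM after JA and 7.54, 6.92 and 8.09 CPM under mock (log2FC -1.14 ± 0.28 SE, FDR 0.00949). It lost its call when any 1 of the 6 oscoi2 libraries was left out, with log2FC of -0.991 to -1.274. OsNAC6 had 153, 80.7 and 184 CPM after JA and 13.7, 23.8 and 69.2 CPM under mock, without overlap. OsNAC6 did not pass the test (FDR 0.0313), and the replicate block within each line gave it an FDR of 0.00636. OsMYB55, at 62.1 to 104 CPM against 45.02 to 57.4 CPM, was not called, and its response was smaller than in WT (difference -1.53, FDR 0.00273).

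Defense genes were called in part. Of 24 listed markers, 8 rose in oscoi2 and 20 in WT, beside 2.99% and 7.48% of all tested genes. The list was chosen in the study on these libraries, and the count fell to 5 without mock replicate 1 and to 4 without both libraries numbered 1. In oscoi2 the fitted log2FC was above 0 for 21 of the 24, with a median of 1.05, against 2.10 in WT. The response differed from that of WT for 3 of the 24, beside 2.94% of all tested genes. An uncalled marker is thus not one shown to have lost its response. OsRBBI2, a Bowman-Birk protease inhibitor, had 458.01, 454 and 363 CPM after JA and 21.9, 22.1 and 24.2 CPM under mock (log2FC 4.22 ± 0.21 SE, FDR 3.41e-09). That was near its WT log2FC of 4.94, and the difference did not pass the test (FDR 0.0984). OsNPR1, a regulator of salicylate responses, had 147, 167 and 149 CPM against 47.5, 62.4 and 53.9 CPM (log2FC 1.502 ± 0.10 SE, FDR 1.40e-07). OsPR5, a thaumatin-type protein, had 67.3, 31.4 and 18.1 CPM against 3.59, 3.21 and 3.699 CPM (log2FC 3.48 ± 0.39 SE). OsWRKY53 had 340, 318 and 370 CPM against 119, 156 and 201 CPM (log2FC 1.11 ± 0.18 SE) and lost its call without mock replicate 1 (log2FC 0.94). OsPR1a reached 522, 407 and 287 CPM against 150, 214 and 249 CPM but did not pass (FDR 0.0375), and JiOsPR10, a root-expressed PR10 gene, had 399, 214 and 213 CPM against 177, 164 and 178 CPM (FDR 0.0465).

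OsWRKY28, chosen after its values were seen, was one of the markers not called in oscoi2. It had 8.54, 5.53 and 8.22 CPM in JA-treated oscoi2 plants and 4.04, 5.54 and 6.57 CPM in mock plants. Its log2FC was 4.09 in WT, and the 2 responses differed (FDR 0.00497).

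**Figure D3:**
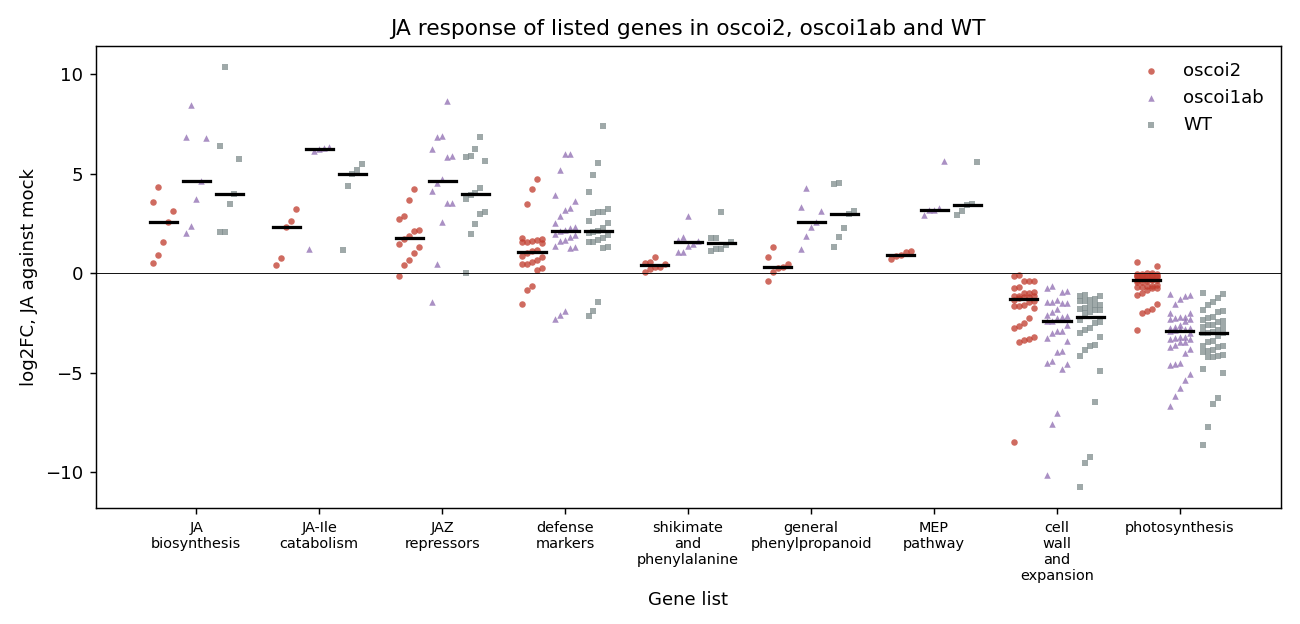
log2FC of JA against mock of the tested members of 9 gene lists in oscoi2 (circles), oscoi1ab (triangles) and WT (squares), with a bar at each median. Median log2FC in oscoi2 are 1.78 for JAZ repressors, 0.40 for the shikimate list and -0.35 for photosynthesis, against 3.97, 1.49 and -2.99 in WT.

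Genes of the shikimate and general phenylpropanoid pathways, which feed aromatic secondary metabolism, were not called. None of 8 genes of the shikimate and phenylalanine pathway and none of 7 genes of the general phenylpropanoid pathway was called in oscoi2, where all 8 and all 7 rose in WT, beside 2.99% of all tested genes in oscoi2 and 7.48% in WT. OsDAHPS1, the entry enzyme of the shikimate pathway, had 664, 548 and 552 CPM after JA and 342, 403 and 463 CPM under mock (log2FC 0.55 ± 0.19 SE, FDR 0.0655), and OsEPSPS 181, 148 and 158 CPM against 137, 125 and 127 CPM (FDR 0.0671). Both sets lie above their mock libraries without overlap, and both responses were smaller than in WT (FDR 0.00973 and 0.000761). OsC4H2 and Os4CL3, of the general phenylpropanoid pathway, had log2FC of 0.31 and 0.44, against 1.33 and 1.83 in WT. The response differed from that of WT for 6 of the 8 and 5 of the 7 genes, beside 2.94% of all tested genes. In the MEP pathway, which makes terpene precursors in plastids, OsHDS rose (98.7, 115 and 67.9 CPM against 33.9, 53.0 and 44.0 CPM, log2FC 1.11, FDR 0.00938), and OsDXR (log2FC 0.84) and OsGGPS1 (0.73) were not called. OsHDS lost its call without any 1 mock library and without JA replicate 1 or 2 (log2FC 0.935 to 1.271). Of the 5 MEP genes 4 responded less than in WT, where 1.63% of all tested genes had a lower log2FC in oscoi2 by this test.

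Lignin and flavonoid genes were mixed. Of 9 lignin precursor genes 3 rose, against 9 in WT, beside 2.99% and 7.48% of all tested genes: OsCAD8A and OsCAD8D, annotated as cinnamyl alcohol dehydrogenases, and OsCAld5H, a coniferaldehyde hydroxylase by its name. OsCAD8D had 86.1, 80.5 and 38.7 CPM after JA and 2.21, 10.6 and 6.73 CPM under mock (log2FC 3.39 ± 0.55 SE), with a WT log2FC of 2.89. OsCAld5H (18.7, 28.4 and 22.03 CPM against 4.22, 7.59 and 8.55 CPM) responded less than in WT (difference -2.69, FDR 0.00318). It lost its call without mock replicate 1 (log2FC 1.513) or JA replicate 2 (1.585), which left 2 of the 9 genes called. ROMT15 overlapped between groups at 509 to 744 CPM after JA and 554 to 617 CPM under mock, where WT gave a log2FC of 1.295. Of 10 flavonoid genes 3 rose, against 8 in WT. OsLDOX3, named as a dioxygenase of the anthocyanin branch, had 136, 149 and 95.6 CPM after JA and 0.210, 0.941 and 0.611 CPM under mock (log2FC 7.75 ± 0.71 SE, FDR 2.04e-06), close to the 8.17 of WT. OsF3H1, a flavanone hydroxylase, had log2FC of 1.93 in oscoi2 and 2.01 in WT, and OsCHS2, a chalcone synthase, 2.79 in oscoi2 and 4.25 in WT.

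Diterpene phytoalexin enzyme genes spread widely between libraries of 1 group. None of 19 enzyme genes was called in oscoi2, and 11 rose in WT, beside 2.99% and 7.48% of all tested genes. The response differed from that of WT for 1 of the 19, beside 2.94% of all tested genes. The missing calls thus do not show a lost response. Their summed level was 32.4, 132 and 46.8 CPM in JA libraries 1 to 3 and 2.97, 75.5 and 60.01 CPM in mock libraries 1 to 3, so that mock replicate 1 stood far below the other mock libraries. OsCPS4, a copalyl diphosphate synthase, had 5.14, 43.2 and 8.05 CPM after JA and 0, 21.2 and 14.5 CPM under mock, with a fitted log2FC of 0.66 ± 1.23 SE that became -0.853 without JA replicate 2. OsKSL8 had 15.3, 31.6 and 19.6 CPM against 1.95, 19.8 and 17.4 CPM. OsWRKY10, a regulator of these genes, had 87.4, 90.6 and 77.9 CPM against 4.70, 7.31 and 8.29 CPM (log2FC 3.66 ± 0.23 SE, FDR 4.94e-08), and OsTGAP1 was not called, at 40.9 to 55.0 CPM after JA and 36.2 to 37.1 CPM under mock.

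Photosynthesis genes, which fell in WT, were not called in oscoi2. None of 41 listed genes was called, where 37 fell in WT (1.47% of all tested genes fell in oscoi2 and 6.56% in WT), and the median log2FC was -0.35 in oscoi2 and -2.99 in WT. Their summed level was 325, 709 and 547 CPM in JA libraries 1 to 3 and 356, 865 and 813 CPM in mock libraries 1 to 3, and was lowest in replicate 1 of both groups. OsPsbO, a subunit of photosystem II, had 22.8, 52.8 and 39.8 CPM after JA and 33.0, 80.0 and 73.9 CPM under mock (log2FC -0.70, FDR 0.455). OsPsbQ-2, also of photosystem II, had 40.7, 69.0 and 58.2 CPM against 33.0, 48.9 and 49.7 CPM. OsLhcb5, a light-harvesting protein, overlapped between groups. With the replicate block within each line 2 of the 41 genes fell. The response differed from that of WT for 5 of the 41, beside 2.94% of all tested genes. In mock-treated plants the summed level was 356 to 865 CPM in oscoi2 and 879 to 2197 CPM in WT, and the part of this lower mock level in the smaller response was not tested.

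Cell wall and root genes responded in part. Of 32 genes for cell wall and expansion, listed in the study from its results on these libraries, 6 fell in oscoi2 (1.47% of all tested genes did) and 26 in WT (6.56%), and the fitted log2FC was below 0 for all 32 in oscoi2. The response differed from that of WT for 3 of the 32, beside 2.94% of all tested genes. OsXTH2, a xyloglucan endotransglucosylase, had 32.2, 24.8 and 38.4 CPM after JA and 223, 159 and 228 CPM under mock (log2FC -2.68 ± 0.49 SE, FDR 0.00129), with -2.74 in WT. OsEXP15, an alpha-expansin, had 0.337, 1.00 and 1.18 CPM against 7.98, 7.10 and 9.9999 CPM (log2FC -3.31 ± 0.71 SE), OsUMA3 75.8, 57.5 and 88.8 CPM against 196, 146 and 164 CPM, and the pectin methylesterase gene OsPME5 6.40, 5.50 and 8.60 CPM against 15.4, 12.3 and 20.8 CPM. All JA libraries of these genes lay below their mock libraries. The differences from WT did not pass the test. Left-out libraries ended the call of OsEXP15 in 4 of 6 omissions, of OsPME5 in 3 and of OsXTH2 in 1. OsEXPB7, a beta-expansin, was not called in oscoi2 (42.3, 39.9 and 57.5 CPM against 82.3, 89.9 and 97.3 CPM, FDR 0.0116), and its response differed from that of WT by 2.72 (FDR 0.000231). The count of falls was unstable: 11 with the replicate block within each line, which also called OsXTH1 (log2FC -1.32, FDR 8.2e-05), 2 without mock replicate 3, JA replicate 1 or JA replicate 2, and 0 without both libraries numbered 1.

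With 4.46% of all tested genes called, the 4 listed cell cycle genes are too few for a count, and none was called, with OsCYCB1-1 at 50.2 to 65.6 CPM after JA and 64.7 to 69.9 CPM under mock. Among 13 root development factors 2 rose and none fell in oscoi2, beside 2.99% and 1.47% of all tested genes. In WT 3 rose and 6 fell, beside 7.48% and 6.56%. The fitted log2FC in oscoi2 was below 0 for 7 of the 13. The response differed from that of WT for 1, beside 2.94% of all tested genes. The oscoi2 counts depended on the fit: 1 rose without mock replicate 1, DESeq2 gave 2 falls, and limma-voom 1 rise and 4 falls. OsPLT1, which maintains the root stem cell niche, had 53.4, 60.7 and 83.6 CPM after JA and 19.5, 28.9 and 30.1 CPM under mock (log2FC 1.33 ± 0.18 SE, FDR 9.02e-05). It was not called in WT (log2FC 0.70), but the 2 responses did not differ by the test (FDR 0.126). OsWOX11, an activator of crown root formation, rose (3.25, 2.48 and 1.82 CPM against 0.694, 0.673 and 0.801 CPM), less than in WT (difference -2.88, FDR 0.00157). OsWOX11 lost its call without mock replicate 1 (log2FC 1.769) or JA replicate 1 (1.571), with limma-voom and in a fit of only the libraries compared. OsPIN2, an auxin efflux carrier of the root tip, fell to 12.9, 13.1 and 29.6 CPM after JA, against 64.3, 38.6 and 49.0 CPM under mock (log2FC -1.45, FDR 0.0062), and lost its call without mock replicate 1 or 3 or JA replicate 1 or 2 (log2FC -1.24 to -1.473). Lsi1, a silicon channel, overlapped between groups, with 1121 to 1688 CPM after JA and 1421 to 1505 CPM under mock.

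Families of genes were then read from the descriptions given in the study's gene tables, which cover 1827 of the 2313 genes that rose in WT. Of these 1827 genes 39.7% also rose in oscoi2, with a median log2FC of 1.16 in oscoi2 and 2.26 in WT. The descriptions cover mainly genes that rose in WT, so the counts that follow show what of the WT response remained and not how a whole family behaved.

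Of 19 families searched, 11 held at least 4 described genes that rose in WT. Among these 11, glutathione S-transferases, which detoxify reactive compounds by conjugation, were the family of which the largest share rose. Of 14 that rose in WT, 13 (92.9%) rose in oscoi2, with a median log2FC of 2.00 in both lines, and 1 responded less than in WT. LOC_Os01g27210 had 236, 239 and 220 CPM after JA and 42.7, 59.0 and 70.9 CPM under mock (log2FC 2.01 ± 0.18 SE, FDR 2.01e-06), with 1.79 in WT. LOC_Os05g05620 had 33.3, 42.9 and 47.5 CPM against 6.39, 9.80 and 7.12 CPM (log2FC 2.41 ± 0.20 SE), below the 3.59 of WT, a difference with an FDR of 0.0115. LOC_Os10g38160 showed the largest rise of the family, at 26.1, 26.2 and 13.9 CPM against 0.32, 0.88 and 0.132 CPM. The gene that responded less, LOC_Os10g38720, had log2FC of 1.86 in oscoi2 and 4.62 in WT (FDR of the difference 0.000733). These last 2 genes were chosen after their values were seen. Several members lie together on chromosome 10, where reads may be shared between copies.

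In the other families a smaller share rose. Over all 1827 described genes 22.2% responded less than in WT. Of 9 TIFY genes, all of them JAZ genes described above, 7 rose but 6 responded less than in WT. Of 15 UDP-glycosyltransferases 10 rose and 5 responded less, and of 26 class III peroxidases 14 rose and 12 responded less. Of 52 cytochrome P450s 26 rose and 10 (19.2%) responded less. Of the P450 genes, 5 were at 0 in all WT mock libraries and 8 in all oscoi2 mock libraries. The test of the difference is not read for such genes, so the 19.2% is not set against the share over all described genes. With such genes at their bound against the floor, the P450 median log2FC was 1.69 in oscoi2 and 4.23 in WT. Of 9 dirigent proteins 6 rose, of 6 lipoxygenases 3, of 4 chitinases 1, of 4 lipid-transfer proteins 1 and of 13 terpene synthases 4. For terpene synthases, 6 genes were at 0 in all WT mock libraries and 8 in all oscoi2 mock libraries, and with such genes at their bound against the floor (0.105 CPM) the median log2FC was 0 in oscoi2 and 5.93 in WT. The peroxidase gene LOC_Os04g59190 had 1257, 995 and 1031 CPM against 56.6, 64.8 and 62.9 CPM (log2FC 4.16 ± 0.18 SE, FDR 7.74e-10), which was still less than the 5.30 of WT (FDR 0.00393). The lipoxygenase gene LOC_Os03g52860, with 3176, 1895 and 4047 CPM against 264, 231 and 279 CPM (log2FC 3.56 ± 0.25 SE), had a log2FC of 4.51 in WT. LOC_Os11g29420, described as a lipid-transfer protein, had 184, 129 and 238 CPM against 0.1005, 0.578 and 0.462 CPM (log2FC 8.90 ± 0.61 SE). Its log2FC in WT was 10.34, and the difference did not pass the test (FDR 0.282).

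**Figure D4:**
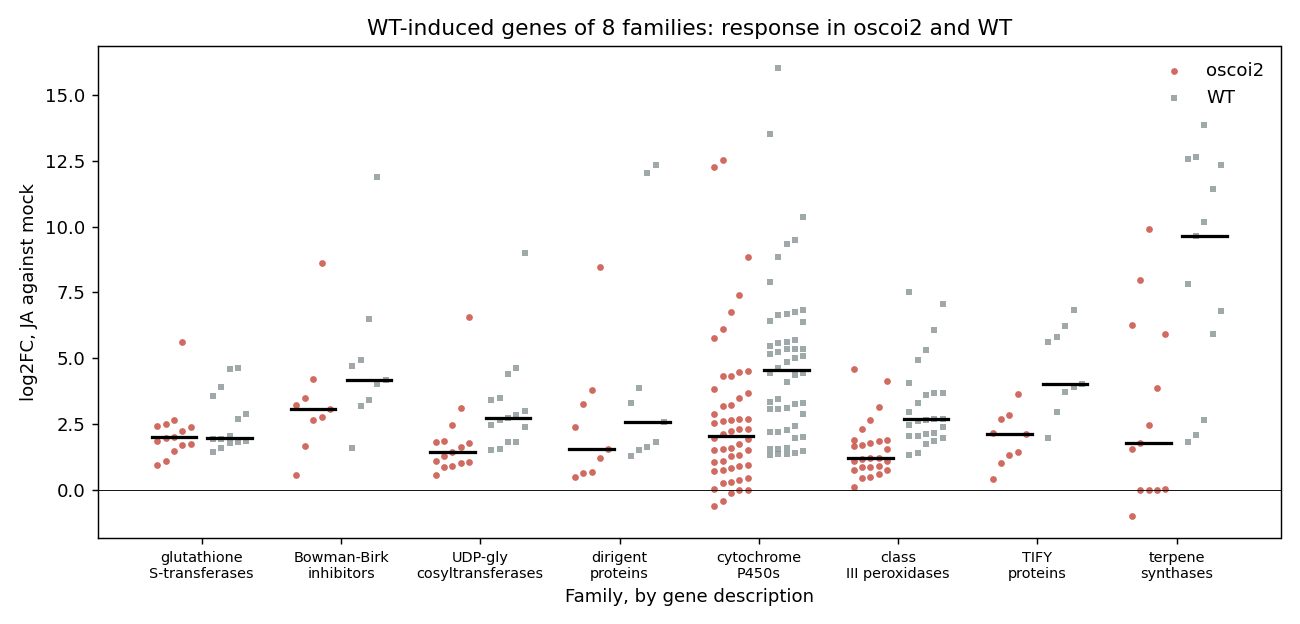
log2FC of JA against mock in oscoi2 (circles) and WT (squares) of the described genes that rose in WT, for 8 families, with a bar at each median. The medians coincide for glutathione S-transferases (2.00 in both lines) and lie apart for TIFY proteins (2.12 in oscoi2, 4.03 in WT).

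Clusters of defense proteins on chromosomes 1 and 7, chosen after their values were seen, also rose in large part. Over all tested genes 2.99% rose in oscoi2 and 7.48% in WT, and the choice of clusters was not independent of these calls. Of the 7 genes described as Bowman-Birk inhibitors between LOC_Os01g03310 and LOC_Os01g03390, 5 rose in oscoi2 and 7 in WT. LOC_Os01g03340 had 6651, 5810 and 7716 CPM after JA and 1171, 882 and 1136 CPM under mock (log2FC 2.66), and LOC_Os01g03360 5791, 5261 and 7550 CPM against 802, 487 and 702 CPM (log2FC 3.22). Of the 14 genes described as SCP-like extracellular proteins, the class of PR1, between LOC_Os07g03288 and LOC_Os07g03740, 10 rose in oscoi2 and 13 in WT. LOC_Os07g03458 had 6747, 5843 and 4800 CPM against 1224, 902 and 1029 CPM, and LOC_Os07g03377 120, 73.9 and 31.5 CPM against 0.0365, 0.216 and 0.809 CPM. The JA libraries of LOC_Os07g03377 spread by several fold without reaching the mock libraries. Members of both clusters are near copies, and the share of reads each received is uncertain.

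The largest rises were from a base of 0 or nearly 0. LOC_Os12g12720, annotated as a jasmonate-induced protein, had 72.3, 46.6 and 82.8 CPM after JA and 0, 0 and 0.0495 CPM under mock (FDR 2.72e-08). The cytochrome P450 gene LOC_Os05g12040 had 7.13, 6.68 and 6.59 CPM against 0 in every mock library. Its JA mean was at least 64.8-fold higher when set against the floor of 0.105 CPM. LOC_Os10g30390, another cytochrome P450, was at least 54.9-fold higher, LOC_Os07g03590 of the PR1 class at least 66.2-fold and the receptor-like kinase gene LOC_Os05g17810 at least 20.9-fold. These 5 genes also rose in WT. With mock libraries at or near 0, the test of the difference between lines is not read for them. LOC_Os10g30390, LOC_Os07g03590 and LOC_Os05g17810 were not called with limma-voom. Among the falls, LOC_Os11g05740, which carries a B3 DNA-binding domain, had 0.617, 0.208 and 0.645 CPM against 12.4, 9.12 and 11.7 CPM (log2FC -4.50 ± 0.65 SE, FDR 0.000184). LOC_Os04g46820 and LOC_Os01g39860, without a description here, had log2FC of -4.83 and -4.62, and LOC_Os01g39860 lost its call in 2 of the 6 omissions of 1 library. LOC_Os01g59870 was at 0 in every JA library and at 1.87, 1.67 and 3.02 CPM under mock, at least 20.9-fold lower, but lost its call with the replicate block within each line (FDR 0.012).

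A small set of genes responded in oscoi2 beyond WT. Of the 22 such genes 18 rose and 4 fell in oscoi2, 17 had a fitted log2FC of opposite sign in WT, and 16 also differed from oscoi1ab. Of the 22, 2 were called in WT. No gene was called in opposite directions in the 2 lines, so the 17 opposite signs in WT are fitted values that were not called. Over all tested genes 3.37% differed from oscoi1ab. Both tests use the same oscoi2 libraries, by which the 22 were picked, so the 16 are no independent support. LOC_Os01g43700 had 67.2, 83.8 and 97.0 CPM in JA-treated oscoi2 plants and 18.8, 18.4 and 22.2 CPM in mock plants (log2FC 2.06 ± 0.18 SE, FDR 1.50e-06). In WT it had 28.1, 30.0 and 21.5 CPM after JA and 29.8, 25.0 and 24.0 CPM under mock, so its groups overlapped there, and the 2 responses differed by 2.05 (FDR 0.00019). LOC_Os07g44440, described as a 1-Cys peroxiredoxin, an antioxidant enzyme, had 255, 388 and 392.3 CPM against 27.2, 56.3 and 53.1 CPM (log2FC 2.92 ± 0.24 SE), and 1.32 in WT. LOC_Os07g44140 had 141, 142 and 143 CPM against 56.8, 68.4 and 77.6 CPM, where WT had a log2FC of -0.25. LOC_Os07g44140 fell short of the fold limit without mock replicate 1 (0.96) and with library size as the only scaling (0.92). LOC_Os08g39860 (log2FC 2.22) also rose in WT (1.18), and LOC_Os02g30110 (log2FC 2.63) was not called there (0.90). LOC_Os01g52260, described as a serine acetyltransferase, which feeds cysteine synthesis, had 22.1, 32.7 and 44.7 CPM against 10.3, 15.1 and 14.95 CPM, with a log2FC of -0.97 in WT (FDR of the difference 0.000771). This gene was chosen after its values were seen and was not called without mock replicate 1 (log2FC 1.14).

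**Figure D5:**
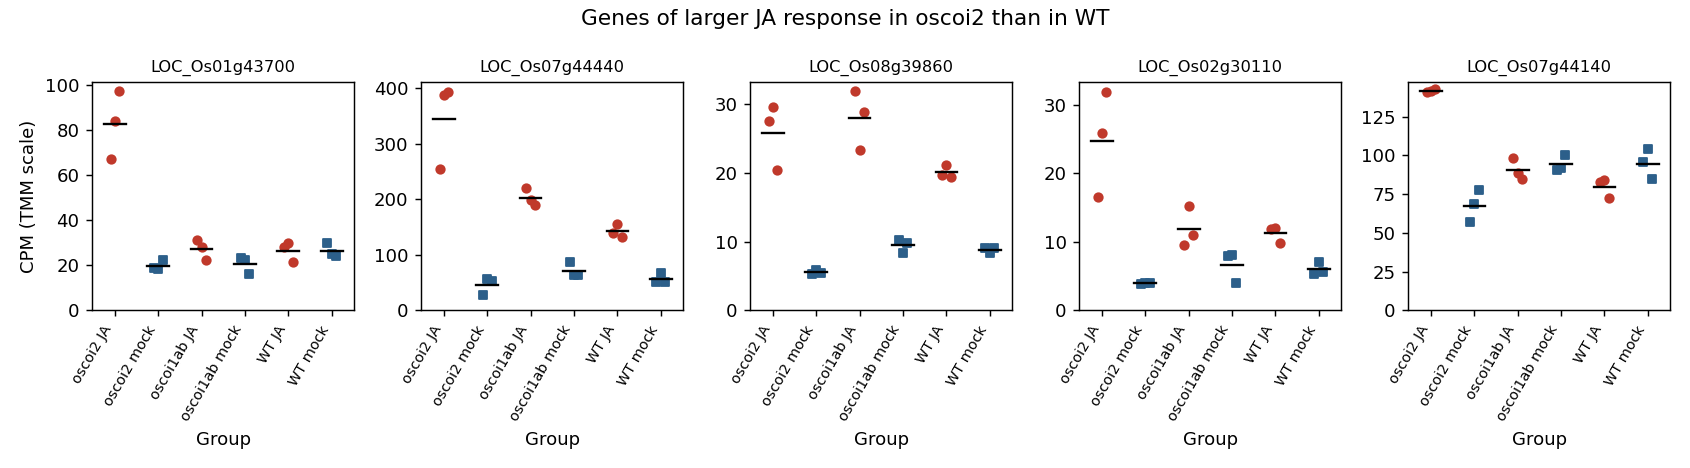
CPM per library (linear axis from 0) of 5 genes called in oscoi2 with a larger response than in WT, JA (circles) left of mock (squares) for oscoi2, oscoi1ab and WT, with bars at the mean of 3 libraries. LOC_Os01g43700 stands at 67.2 to 97.0 CPM in JA-treated oscoi2 plants and at most 31.2 CPM in every other group.

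In 16 of the 1378 called genes the WT log2FC was under 0.2 in size. They were picked by their oscoi2 and WT values, so the tests of their difference from WT are no independent support. LOC_Os02g53790 fell in oscoi2 with 32.3, 25.5 and 31.2 CPM after JA and 79.7, 60.3 and 64.0 CPM under mock (log2FC -1.20 ± 0.15 SE, FDR 5.81e-05), and its response differed from WT (FDR 0.00239). LOC_Os04g39980 rose (122, 136 and 162 CPM against 53.5, 62.0 and 67.4 CPM), with a difference from WT of 1.35 (FDR 0.00241). For Os02g0203200 and LOC_Os10g38090 the log2FC of 1.41 and 1.09 did not differ from WT at the FDR limit (0.0179 and 0.0366). The response of LOC_Os10g38090 did differ from that of oscoi1ab (by 1.32, FDR 0.00522), and its call was lost without mock replicate 1 (log2FC 0.876), without JA replicate 2 (0.883) and with library size as the only scaling (0.942).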

How the data were processed

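Crown root tips were profiled by RNA-seq in 18 samples, of which the 6 of oscoi2 are described. The authors trimmed reads with CutAdapt, mapped them with HiSat2 to rice references with the MSU7 and RAP-DB annotations, assembled transcripts with StringTie and made counts with an in-house script. Versions of these tools are not given in the sources used here. The deposited values are whole-number estimated counts per gene, not normalized, for 64687 genes. Values from 1 to 60 lay within 0.5 of a multiple of 3.66 in 32.2% of cases, against 26.7% of whole numbers. What 1 pair of reads adds to a count is not given, and 3.7 was taken as an assumption. The floor of 3 such pairs, 11.1 counts or 0.105 CPM, covers counting error only. No depth in read pairs is used.

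The 30907 genes whose counts summed to 180 or more were tested with edgeR 4.0.16 (R 4.3.3) in 1 fit of 18 libraries and 6 groups, with TMM scaling and the quasi-likelihood F test, and responses of 2 lines were compared by interaction contrasts. The standard error is the log2FC divided by the square root of F. DESeq2 1.42.0, limma 3.58.1, other scalings, filters and limits, a replicate block and the omission of each library were alternatives. The fit was tested on simulated data.

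After group means were removed, oscoi2 libraries of the same number correlated between JA and mock with r of 0.256, 0.554 and 0.123 over 17616 genes of at least 5 CPM on log2(CPM + 0.5), so the numbers were taken to pair them. The third r was 0.091 on log2 CPM with a prior count of 2. JA replicate 3 correlated more with mock replicate 1 (0.159, or 0.135 with that prior count), so the pairing of the third libraries is unsure. All other r between oscoi2 libraries of different number were -0.401 to -0.053. The source of this pairing is not stated. The main fit holds no replicate term, so its tests do not use the pairing. With the replicate block within each line, 1544 genes were called for the oscoi2 response, of which 1256 were also called in the main fit.

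Genes named are the receptor, JAZ and JA metabolism genes, up to 4 called and 2 other genes of each further list, up to 2 called genes of each family, the 6 largest rises and falls with a mean of at least 1 CPM and no overlap, and 5 genes each of larger response than WT and of flat WT response, and others are marked as chosen later. Members and lists were chosen with earlier results of these data known, and most lists come from the study, which drew them from these libraries. Gene descriptions come from the study's tables. No promoter, protein or genome sequence was used.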

Additional observations from a re-analysis of the deposited data

Results flagged for a closer look

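The JA response of oscoi2 differed from that of WT for 908 genes and from that of oscoi1ab for 1042 genes, by the interaction contrasts of the edgeR fit. Values below are differences of log2FC that passed this test at an FDR under 0.01, given for oscoi2 minus WT unless oscoi1ab is named. A difference from oscoi1ab is printed only for genes whose difference from WT was not called. Of the genes printed with a difference from WT, some were also called against oscoi1ab, such as OsJAZ9 (-5.19). Others, such as OsAOS1, were not. No explanation of these differences was tested.

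In JA metabolism the difference was -1.19 for OsAOC, -6.01 for OsAOS1, -1.91 for OsAOS2, -1.54 for OsOPR7, -2.60 for OsPLD4, 3.38 for OsJAR2, -1.94 for OsCYP94B4, -2.37 for OsCYP94C2a and -3.14 for OsCYP94C2b. Against oscoi1ab it was -2.06 for OsPLD5 and -5.60 for OsCYP94B5.

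Among the repressors it was -1.22 for OsJAZ1, -1.60 for OsJAZ6, -4.78 for OsJAZ9, -2.45 for OsJAZ10, -3.39 for OsJAZ11, -2.93 for OsJAZ12 and -3.60 for OsJAZ13. Against oscoi1ab it was -5.01 for OsJAZ5, -1.35 for OsJAZ7 and -2.70 for OsJAZ8.

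In secondary metabolism it was -1.23 for OsDAHPS1, -1.11 for OsEPSPS, -1.02 for OsC4H2, -1.39 for Os4CL3, -2.69 for OsCAld5H, -1.12 for ROMT15, -1.84 for OsCHI4, -2.03 for OsHDS, -2.61 for OsDXR and -2.68 for OsGGPS1.

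For regulators and growth genes it was -1.53 for OsMYB55, -2.88 for OsWOX11 and 2.72 for OsEXPB7. Against oscoi1ab it was -1.96 for OsWRKY10, -1.21 for OsMYC2, -1.76 for OsRBBI2 and 2.35 for OsPsbQ-2.

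In families and clusters it was -2.16 for the glycosyltransferase LOC_Os04g44354, -1.15 for LOC_Os04g59190 and -1.76 for LOC_Os03g13210 (peroxidases), -1.23 for the inhibitor LOC_Os01g03330, -2.08 for the oxygenase LOC_Os04g10350 and -1.76 for LOC_Os10g37340, annotated as a cystathionine synthase. The last 2 were chosen after their values were seen. Against oscoi1ab it was -1.99 for LOC_Os03g52860, -1.29 for LOC_Os05g05620, -1.33 for the cytochrome P450 LOC_Os05g37250, -1.64 for LOC_Os01g03340, -2.08 for LOC_Os01g03360, -1.72 for LOC_Os07g03368 and -2.11 for LOC_Os07g03458.

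Larger responses in oscoi2 gave 1.03 for LOC_Os08g39860, 1.60 for LOC_Os07g44440, 2.05 for LOC_Os01g43700, 1.73 for LOC_Os02g30110, 1.31 for LOC_Os07g44140, 1.35 for LOC_Os04g39980, 2.28 for LOC_Os01g52260 and -1.20 for LOC_Os02g53790. Against oscoi1ab LOC_Os10g38090 gave 1.32. All genes of this paragraph were picked by their values in oscoi2 and WT, so these differences are no independent support.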

How the results depend on the processing

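The oscoi2 response held 1378 calls, its difference from WT 908 and that from oscoi1ab 1042. An FDR limit of 0.05 gave 2078, 1619 and 1835, and testing against a 2-fold change with glmTreat 296, 50 and 88. Without a fold minimum the response held 2708 calls. The likelihood ratio test gave 1493 and 1656 and DESeq2 1533 and 1718 for the differences from WT and oscoi1ab. With library size as the only scaling the differences split into 685 up and 339 down against WT and 818 up and 371 down against oscoi1ab. Leaving out 1 library gave 919 to 1399 calls for the response (919 without JA replicate 2, 937 without mock replicate 1), 586 to 925 for the difference from WT (586 without oscoi2 mock replicate 3, 596 without JA replicate 2) and 743 to 1070 for that from oscoi1ab. Leaving out both oscoi2 libraries numbered 1, chosen after seeing the data, gave 749. No named gene called in oscoi2 changed sign under the alternatives run. Of the 141 named genes 6 did, all uncalled, among them OsCOI2 (log2FC -0.138) and OsCOI1b (-0.003) with library size only. Low counts limit OsJAZ2, OsJAZ15 and the diterpene enzymes, and the cause of the changes was not tested.

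With the replicate number as a block the counts were 1475, 1101 and 1281, and with the block within each line, added after seeing the data, 1544, 1095 and 1283. The block common to all lines also ended the calls of OsHDS (log2FC 1.122), OsbHLH034 (-1.145), OsPIN2 (-1.409) and LOC_Os01g21640 (-4.161) and gave calls to OsXTH1 and LOC_Os07g03600. The block within each line changed the calls given in the report and that of LOC_Os07g03600, gained with an FDR of 0.00894, and no other call of a named gene. A search of promoters for motifs was planned but not run.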
